A study of Rattus norvegicus with 15 samples.

Results

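The early response of rat liver to partial hepatectomy was described from 8 of the 15 miRNA arrays of the series: the arrays of the pools sampled at 1 h and 6 h after surgery, together with the arrays of the same pools before surgery. Rats had been fed ethanol for a long period (EtOH) or pair-fed a diet in which carbohydrate took its place (CHO), and each pool held liver RNA of 4 animals. The 4 pools were EtOH at 1 h, CHO at 1 h, EtOH at 6 h and CHO at 6 h. Each was measured before partial hepatectomy (the samples called LLM in the labels, which do not spell out the term) and after it (PHx), so every pool gave a pair of arrays from the same animals, all on the same slide. All animals, in both diets and at both times, had undergone the operation, and no sham-operated group was used here. Strain, sex, age and lobe could not be given, since the labels used here do not state them. Within each diet the 1 h and 6 h pools share 1 animal, so the pairs are not fully independent. The p-values measure the spread of the paired change between pools. Each time had 1 EtOH and 1 CHO pair, so at 1 h and at 6 h that spread includes any difference between diets. Of the 350 miRNAs on the array, 133 were detected on at least 3 of the 8 arrays and were tested, and 217 were not tested.

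Partial hepatectomy removes most of the liver, and the remnant regrows by division of cells that are normally at rest. The first hours are known as the priming phase, in which cytokines such as TNF and IL-6 from resident macrophages switch on NF-kB and STAT3 and bring hepatocytes out of quiescence before DNA synthesis begins. MiRNAs are short RNAs that lower the output of messenger RNAs by pairing with them, chiefly through the seed, the bases from the second to the eighth position, and miRNAs with the same seed share most of their predicted targets.

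The mature sequences below, from RefSeq (build GRCr8), are those of the 5 miRNAs that passed the test at 6 h. Capitals mark the seed, and sequences run 5′ to 3′. The array names of these miRNAs carry no arm, and the sequence of the arm known as the guide is shown. The 5 seeds all differ.
miR-872: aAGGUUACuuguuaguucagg
miR-223: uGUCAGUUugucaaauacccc
miR-21: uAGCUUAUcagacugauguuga
miR-652: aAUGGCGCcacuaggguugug
miR-466b: uAUGUGUGuguguauguccaug

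In that build the mature miR-872 lies in Mir872 (chr5:114654833-114654853, plus strand), miR-223 in Mir223 (chrX:65151450-65151470, plus strand), miR-21 in Mir21 (chr10:71902653-71902674, minus strand) and miR-652 in Mir652 (chrX:111140129-111140149, plus strand). MiR-466b is listed at 2 neighbouring genes, Mir466b-2 (chr17:72942513-72942534) and Mir466b-1 (chr17:72945547-72945568), both on the minus strand, whose products the array cannot tell apart.

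Members of the miR-196 family are shown because they share a seed and had the largest mean changes beside miR-466b, with a gap between diets. Each pair of them is identical at 21 of 22 bases, so probes for 1 of them may also bind the others, which was not tested.
miR-196a: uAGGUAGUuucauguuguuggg
miR-196b: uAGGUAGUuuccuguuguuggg
miR-196c: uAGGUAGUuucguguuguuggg

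MiR-17, miR-20a and miR-93 are shown because they share a seed and were among the miRNAs with the lowest unadjusted p in the comparison of later with early times. MiR-17 is identical to miR-20a at 21 of 23 bases and to miR-93 at 19 of 23.
miR-17: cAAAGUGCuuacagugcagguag
miR-20a: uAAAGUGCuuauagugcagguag
miR-93: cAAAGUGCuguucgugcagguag

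The 8 arrays were of like quality. Between 112 and 130 miRNAs were detected on each, and the median coefficient of variation between spots of a probe lay between 7.77% and 9.09%. Signals before and after PHx correlated across miRNAs with r from 0.992 to 0.997 within pairs, lowest in the CHO 6 h pair. The unscaled brightness of an array, taken as its 75th percentile of probe signal, was higher after PHx than before it in both 1 h pairs (288.1 to 390.8 in EtOH and 424 to 459.8 in CHO) and lower in both 6 h pairs (410.5 to 339.9 in EtOH and 426.6 to 373.2 in CHO). Array brightness therefore moved in opposite directions at the 2 times. Without scaling, the median change of all tested miRNAs was 0.29 at 1 h and -0.15 at 6 h on the log2 scale, against 0.03 and 0.08 with scaling. MiR-122, the defining hepatocyte miRNA, was abundant, and its scaled signal lay between 34300 and 44010 on the 8 arrays.

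Over all 4 pairs, the comparison asks which miRNAs moved the same way within the first 6 h whatever the diet. MiR-466b, encoded in rodents within a large repeat-rich cluster of related miRNAs, rose and was the only miRNA to pass the test. The next in order of p were miR-500, miR-214, miR-196c, miR-872, miR-221 and miR-10b, which were higher after PHx in all 4 pairs but did not pass, and miR-193, which was lower in all 4 pairs and did not pass. The median change of the 133 was 0.05 on the log2 scale, and the changes ranged from -0.30 to 0.75. Scaling brings the arrays to a common level, so a median near 0 is partly set by it.

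The scaled signal of miR-466b went from 12.5 to 22.0 in the EtOH 1 h pool, from 19.79 to 25.7 in the CHO 1 h pool, from 15.91 to 29.75 in the EtOH 6 h pool and from 18.78 to 30.8 in the CHO 6 h pool. Every PHx array lay above every LLM array. The mean log2 change was 0.70 (SE 0.0935; SD 0.23, n = 4 pairs), a 1.63-fold rise, with an adjusted p of 0.0462 in limma after Benjamini-Hochberg adjustment. That was 1 call among 133 tested miRNAs, or 0.752% in the higher direction, and no miRNA passed in the lower direction. At an unadjusted p under 0.05 there were 16 higher (12%) and 2 lower (1.5%). The call was lost without any of 3 pairs (adjusted p 0.0883 without the EtOH 1 h pair, 0.211 without the EtOH 6 h pair and 0.169 without the CHO 6 h pair), with quantile normalization (0.143) and in the authors' deposited values (0.0979). With the background modelled by normexp the change was 0.17 (adjusted p 0.982). That setting added an offset of 50 to each spot, which shrinks the log2 changes of dim miRNAs whatever the background. It thus cannot tell whether the call depends on background. The miR-466b signals are low, since the floor of the scaled signal was 9.61. Another probe for miR-466b, detected on 5 of the 8 arrays, gave a smaller mean change of 0.50.

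**Figure D1:**
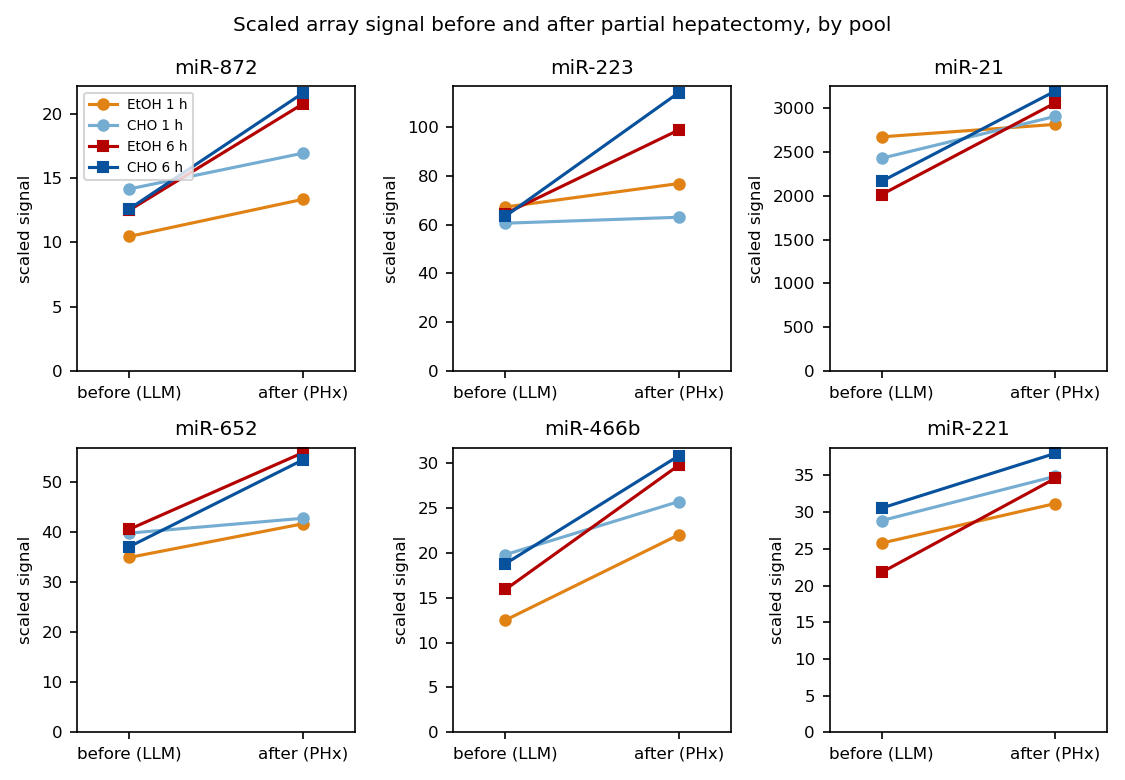
Scaled signal (linear axis from 0) of 6 miRNAs before (LLM) and after (PHx) partial hepatectomy, with 1 line per pool of 4 animals, circles for the 1 h pools and squares for the 6 h pools. Every line rises, and for miR-872, miR-223, miR-21 and miR-652 both 6 h lines are steeper than both 1 h lines.

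Of the 133 miRNAs, 22 were higher after PHx in 4 of 4 pairs (16.5%) and 8 were lower in 4 of 4 (6.02%). For 8 miRNAs (6.02%) all 4 PHx arrays lay above all 4 LLM arrays, namely miR-466b, miR-221, miR-21, miR-214, miR-652, miR-186, miR-342-3p and miR-23a, and for none did they all lie below. MiR-221, a liver oncomiR that targets the cell cycle inhibitor p27, went from 25.78 to 31.16 (EtOH 1 h), 28.84 to 34.87 (CHO 1 h), 21.79 to 34.58 (EtOH 6 h) and 30.55 to 37.99 (CHO 6 h) in scaled signal. The lowest array after PHx was thus just above the highest before it. Its log2 change was 0.38 (SE 0.081, adjusted p 0.0774). MiR-214, expressed by hepatic stellate cells, went from 11.32 to 15.01, 13.08 to 14.73, 12.98 to 17.17 and 13.17 to 17.35 in the same order of pools, a log2 change of 0.35 (SE 0.0599, adjusted p 0.0557). Its 4 LLM values were all below its 4 PHx values, but were near the floor, and it was detected on 3 of 4 LLM arrays.

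MiR-500 went from 23.21 to 30.14 (EtOH 1 h), 33.27 to 38.51 (CHO 1 h), 28.04 to 35.88 (EtOH 6 h) and 32.26 to 46.13 (CHO 6 h), a log2 change of 0.36 (SE 0.0623, adjusted p 0.0557). The groups overlapped, because the EtOH 1 h pool was low both before and after PHx, while each pool was higher after it. Another probe for miR-500 gave a larger change, 0.61 against 0.36. MiR-10b, encoded in a Hox gene cluster as the miR-196 genes are, changed by between 0.17 and 0.28 in the 4 pairs (mean 0.22, SD 0.055, n = 4 pairs, SE 0.0474, adjusted p 0.0774). Its relative miR-10a-5p changed by 0.07 and was also higher in 4 of 4 pairs.

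The miRNAs lower in all 4 pairs had small changes. MiR-193, which is enriched in hepatocytes, went from 91.3 to 69.85 (EtOH 1 h), 71.75 to 61.6 (CHO 1 h), 64.8 to 58.9 (EtOH 6 h) and 72.85 to 53.79 (CHO 6 h) in scaled signal. Both 1 h PHx arrays lay below both 1 h LLM arrays and likewise at 6 h, while over the 8 arrays the groups overlapped. Its log2 change was -0.30 (SE 0.0664, adjusted p 0.0793), and it was below 0 under all 6 scalings tried, from -0.46 to -0.27. MiR-203, known from keratinocytes, changed by -0.19 (SE 0.0592, adjusted p 0.184). MiR-212, miR-125b-5p, miR-192, miR-27b, miR-194 and miR-26b changed by between -0.14 and -0.03. MiR-192 and miR-194 lie next to each other on chromosome 1, within 259 bp in GRCr8, and their changes were alike (-0.07 each).

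**Figure D2:**
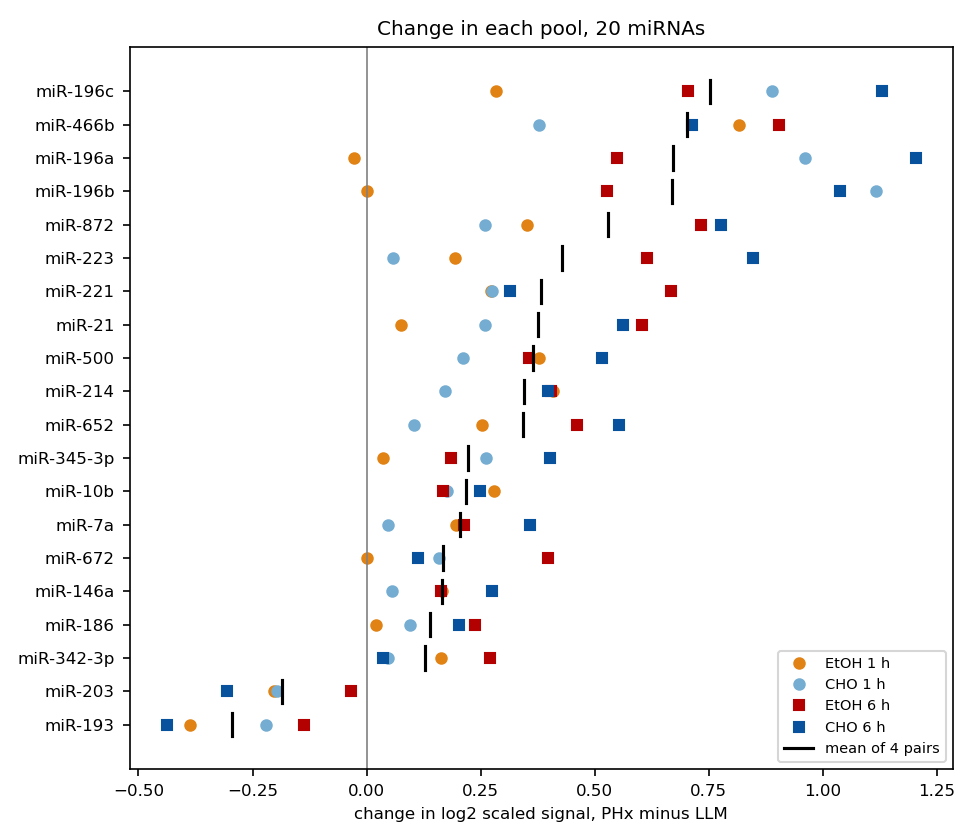
Change in log2 scaled signal (PHx minus LLM) of the 20 miRNAs with the lowest unadjusted p over the 4 pairs, with 1 point per pool and a black bar at the mean of 4 pairs. Only miR-203 and miR-193 lie below 0 in all pools, and the miR-196 points spread most widely, with the CHO pools above the EtOH pools.

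At 1 h alone no miRNA passed in either direction in limma (0% of 133), with 8 higher (6.02%) and 1 lower (0.752%) at an unadjusted p under 0.05. The 8 with the lowest p were miR-466b (0.60, SE 0.126), miR-872 (0.30), miR-500 (0.29), miR-214 (0.29), miR-10b (0.23), miR-199a-5p (0.26), miR-196c (0.59) and miR-193 (-0.30), with adjusted p from 0.430 to 0.524. With normexp, which adds an offset of 50 before scaling, the first 6 of these turned to between -0.16 and -0.02. The median 1 h change of all 133 was -0.08 in that fit, against 0.03 in the main fit. The direction of these 6 at 1 h thus depends on the processing, and the part of that shared shift was not tested. Both PHx arrays lay above both LLM arrays for 13 miRNAs (9.77%) and below for 4 (3.01%). MiR-199a-5p and miR-199a-3p, arms of the same hairpin known from stellate cells and other mesenchymal cells, were among the 13. MiR-199a-5p went from 35.3 to 45.56 in EtOH and from 43.46 to 48.42 in CHO at 1 h, and from 39.14 to 39.12 and from 52.75 to 50.19 at 6 h. It was thus higher in both pools at 1 h and lower in both at 6 h, by little.

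At 6 h 5 miRNAs passed, all of them higher after PHx (3.76% of 133), and none was lower. They were miR-872, miR-223, which marks neutrophils and monocytes, miR-21, which NF-kB and STAT3 are known to induce, miR-652, which is also found in monocytes, and miR-466b. At an unadjusted p under 0.05 there were 29 higher (21.8%) and 2 lower (1.5%), miR-30e and miR-193. Both PHx arrays lay above both LLM arrays for 32 miRNAs (24.1%) and below for 3 (2.26%). More changes were above than below 0 with the main scaling: the change was above 0 in both 6 h pairs for 70 miRNAs (52.6%) and below 0 in both for 16 (12%), against 38 (28.6%) and 27 (20.3%) at 1 h. This balance depends on the scaling. At 6 h 91 miRNAs were above 0 and 42 below with the main scaling (median 0.08), but 54 and 74 with quantile normalization, 62 and 64 in the authors' deposited values, and 54 and 79 when arrays were scaled over all probes. Without scaling 26 were above 0.

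MiR-872, a rodent miRNA with low signal in these livers, went from 12.5 to 20.76 in EtOH and from 12.6 to 21.6 in CHO at 6 h, and from 10.46 to 13.34 and 14.15 to 16.93 at 1 h. Both pools at 6 h gained about the same, and both gained more than either pool at 1 h. The 6 h change was 0.75 (SE 0.0651, adjusted p 0.0172), or 1.69-fold. It was detected on 2 of 4 LLM arrays and all 4 PHx arrays, and another probe for it, detected on 4 arrays, changed by 0.41 at 6 h. With the floor doubled the change shrank to 0.14 (adjusted p 0.104).

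The scaled signal of miR-223 lay between 60.65 and 67.31 on the 4 LLM arrays. It rose to 98.96 (EtOH) and 114.3 (CHO) at 6 h, and stood at 76.94 (EtOH) and 63.09 (CHO) at 1 h. The 6 h arrays stood well clear of all others, while the CHO 1 h array after PHx lay among the LLM arrays. The 6 h change was 0.73 (SE 0.0869, adjusted p 0.0338), or 1.66-fold, and its other probe gave 0.71. Fewer cells of a type and less RNA per cell cannot be told apart in bulk liver, nor can more of either.

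MiR-21 was among the brightest of these, with scaled signals of 2676, 2431, 2016 and 2167 before PHx in the EtOH 1 h, CHO 1 h, EtOH 6 h and CHO 6 h pools, and 2818, 2909, 3062 and 3198 after it. Every PHx array exceeded every LLM array, by a wider margin at 6 h. The 6 h change was 0.58 (SE 0.0747, adjusted p 0.0338), or 1.497-fold, and the 1 h change was 0.17 (SE 0.0747, adjusted p 0.769). Its other probe gave 0.64 at 6 h. Across 6 scalings the 6 h change ran from 0.14 in the authors' deposited values to 0.62, against 0.50 to 0.77 for miR-223. In the authors' values miR-21 changed by 0.1415 at both times and let-7a by -0.1416 at both. MiR-122 changed by 0.00 there. These bright miRNAs thus moved by a fixed step or not at all, so the 0.14 does not measure the size of the miR-21 change. With quantile normalization the 6 h change of miR-21 was 0.27.

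MiR-652 went from 40.49 to 55.75 (EtOH) and from 37.02 to 54.31 (CHO) at 6 h, and from 34.88 to 41.58 and 39.73 to 42.68 at 1 h. All PHx arrays were above all LLM arrays, those at 1 h by little. The 6 h change was 0.51 (SE 0.073, adjusted p 0.0417), or 1.42-fold, and the other probe gave 0.52. MiR-466b changed by 0.81 at 6 h (SE 0.126, adjusted p 0.0471), or 1.75-fold, and its other probe gave 0.60.

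Since each time has 2 pairs, the 6 h calls rest on few pools. Without the EtOH 6 h pair or without the CHO 6 h pair none of the 5 passed (adjusted p between 0.105 and 0.276 for these 5), although each still changed by between 0.46 and 0.90. None passed with quantile normalization or in the authors' deposited values either, where the 5 changes ran from 0.14 to 0.66. The 0.14 is the fixed step of miR-21 in the authors' values. Without scaling only miR-466b of the 5 passed. With normexp miR-872 shrank to 0.36, miR-466b to 0.40 and miR-652 to 0.34 (adjusted p 0.140 each), while miR-21 and miR-223 passed. The offset of 50 in that setting shrinks the changes of dim miRNAs, such as miR-872, miR-466b and miR-652. Just short of the threshold at 6 h, with an adjusted p of 0.0685, were among others miR-92a (0.35), miR-500 (0.44) and miR-196c (0.92).

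The difference between the times was tested itself, and none of the 133 passed in either direction (0%), with 13 higher at 6 h (9.77%) and 2 lower (1.5%) at an unadjusted p under 0.05. The 6 miRNAs with the lowest p were all more positive at 6 h: miR-223 by 0.61 (SE 0.123), miR-872 by 0.45, miR-139-3p by 0.47, miR-92a by 0.41, miR-505 by 0.39 and miR-21 by 0.42, with adjusted p of 0.216 or 0.248. Without scaling miR-139-3p, miR-92a, miR-505 and miR-21 turned to between -0.12 and -0.04, where the median difference of all 133 was -0.41. MiR-139-3p went from 43.59 to 38.04 (EtOH) and 34.61 to 33.35 (CHO) at 1 h, and from 33.82 to 43.38 and 32.35 to 40.52 at 6 h. Both pools were lower at 1 h and higher at 6 h, a pattern that 13 of the 133 miRNAs had, while 2 had the opposite, miR-199a-5p and miR-143. MiR-92a, the last member of the miR-17-92 transcript, went from 199 to 194 and 259.7 to 243.2 at 1 h, and from 185.4 to 239.5 and 230.4 to 289.4 at 6 h. MiR-122 was in the same set of 13, with changes of -0.04 and -0.11 at 1 h and 0.18 and 0.10 at 6 h.

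**Figure D3:**
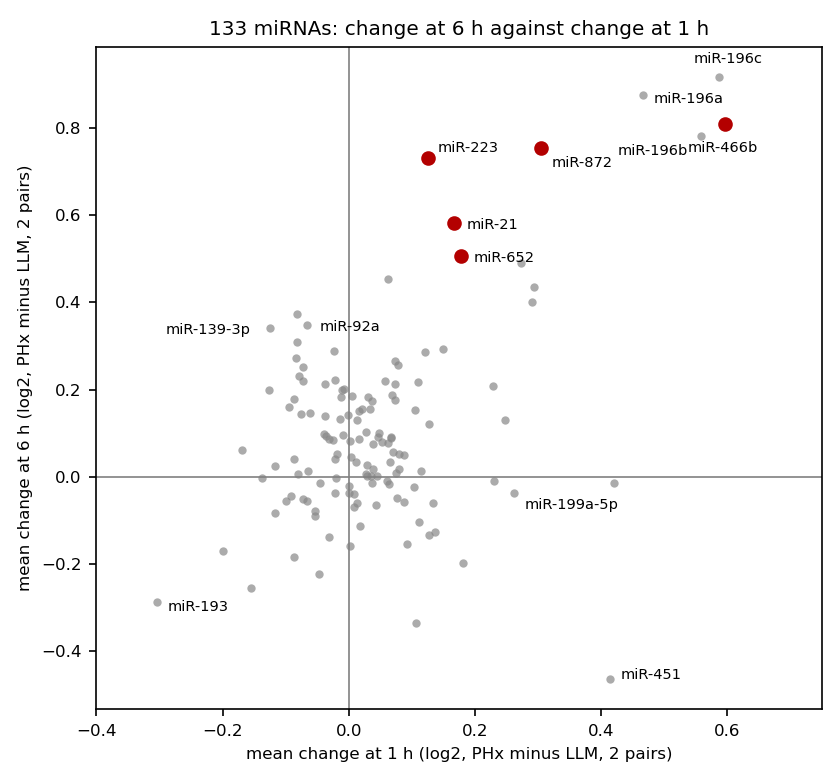
Mean log2 change at 6 h (vertical axis) against mean log2 change at 1 h (horizontal axis) for the 133 tested miRNAs, each the mean of 2 pairs. The 5 called at 6 h are red and lie at or above 0.51 on the vertical axis, and miR-451 stands apart at lower right.

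Whether the change differed between the diets was also tested, and none of the 133 passed (0% in each direction), with 1 higher (0.752%) and 6 lower (4.51%) in EtOH at an unadjusted p under 0.05. The lowest p belonged to the miR-196 family, whose genes lie within the Hox clusters and whose known targets include Hox genes. MiR-196a went from 25.48 to 49.62 (CHO 1 h) and 27.73 to 63.82 (CHO 6 h), but from 17.53 to 17.19 (EtOH 1 h) and 13.66 to 19.99 (EtOH 6 h). Both CHO pools gained more than either EtOH pool, and the EtOH 1 h pool did not gain. The EtOH minus CHO difference in change was -0.82 (SE 0.212, adjusted p 0.470). MiR-196b differed by -0.81 (SE 0.191, adjusted p 0.470), with both EtOH LLM arrays and the EtOH 1 h PHx array below the floor. MiR-196c went from 37.22 to 68.88 (CHO 1 h), 40.89 to 89.53 (CHO 6 h), 21.04 to 25.62 (EtOH 1 h) and 20.78 to 33.84 (EtOH 6 h), a difference of -0.52 (SE 0.181, adjusted p 0.812). All 4 of its pairs were higher after PHx, with a mean change of 0.75 (SE 0.136, adjusted p 0.0557). Its 3 other probes gave mean changes of 0.71, 0.69 and 0.81.

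MiR-451, which is made in red blood cells, was the only miRNA with an unadjusted p under 0.05 that changed more in EtOH. It went from 618 to 1197 (EtOH 1 h), 772.1 to 707.5 (CHO 1 h), 889.7 to 914 (EtOH 6 h) and 1013 to 518.6 (CHO 6 h), a difference of 1.04 (SE 0.365, adjusted p 0.812). The gap rests on a gain in the EtOH 1 h pool and a fall in the CHO 6 h pool, since the other pools moved by 0.13 or less. MiR-144, from the same erythroid transcript and detected on 3 of the 8 arrays, moved with it (0.25, -0.07, 0.00 and -0.31 in the same order). The summed signal of both ranged from 629 to 1025 on the LLM arrays and from 523 to 1210 on the PHx arrays. Scaling changed these calls: miR-196a and miR-451 passed with the percentile over all probes (adjusted p 0.0269 each), and miR-196a (0.0297), miR-196b (0.0199) and miR-451 (0.0199) with that over probes detected on all 8 arrays. MiR-335 (-0.38) and miR-125a-3p (-0.52) completed the 6 with the lowest p, with an adjusted p of 0.812.

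**Figure D4:**
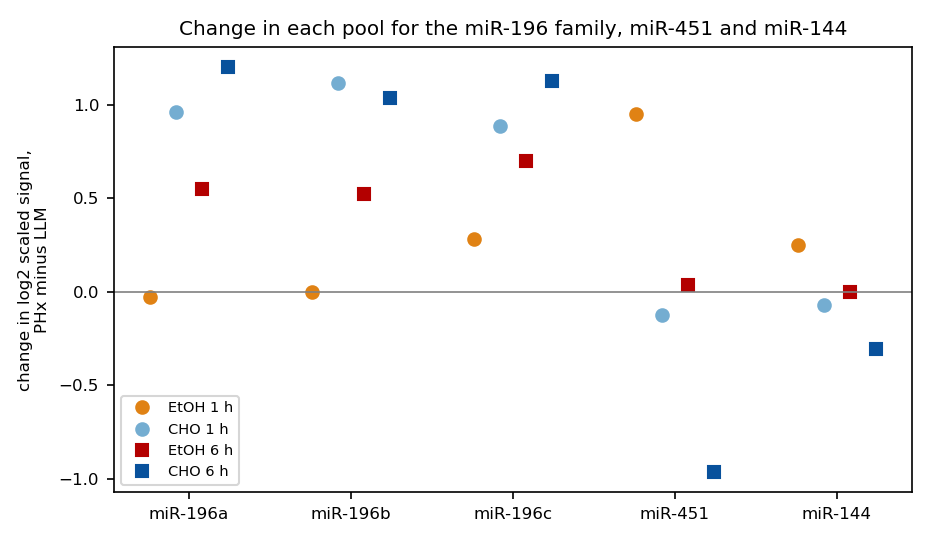
Change in log2 scaled signal (PHx minus LLM) in each pool for the 3 miR-196 miRNAs, miR-451 and miR-144. The CHO points of the miR-196 miRNAs lie between 0.89 and 1.20 and their EtOH points between -0.03 and 0.70, while miR-451 runs from -0.97 (CHO 6 h) to 0.95 (EtOH 1 h).

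By known role, the miRNAs tied to inflammation and NF-kB held 4 tested members of 7. MiR-21, miR-223 and miR-146a, an NF-kB target that restrains Toll-like receptor signalling, were higher in 4 of 4 pairs (16.5% of all 133 were), and miR-212 was lower in 4 of 4 (6.02% were). Of the 4, 2 passed at 6 h (miR-21 and miR-223), against 3.76% of all 133, and the median change was 0.40 at 6 h and 0.12 at 1 h, against 0.08 and 0.03 over all 133. Across 6 scalings that 6 h median ran from 0.13 in the authors' deposited values to 0.44. The 0.13 rests in part on the fixed step of miR-21 in those values. Without scaling 2 of the 4 were above 0 at 6 h. The list was chosen with earlier results of these data known, so these shares only describe it. MiR-146a itself changed by 0.22 at 6 h (SE 0.0706, adjusted p 0.176), and by -0.01 without scaling, where the median of all 133 was -0.15. MiR-155 was not tested. Of the leukocyte markers, which share miR-223 and miR-146a with that list, 4 of 6 were tested: miR-223 passed at 6 h, while miR-142-3p (-0.02) and miR-150 (0.01) were close to 0 at that time. The summed leukocyte signal, which includes miR-223 itself, was 293.5 to 349 on the LLM arrays and 363.7 and 441.3 on the 6 h PHx arrays. It is thus not separate from the miR-223 result. The part of cell influx in the miR-223 result was not tested.

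Of 8 miRNAs from earlier literature on liver regeneration 6 were tested, and miR-21 was the only one that passed, at 6 h. MiR-34a, a p53 target that blocks the cell cycle, changed by -0.07 at 1 h and -0.05 at 6 h, and miR-378 by -0.09 and 0.18. MiR-34a was higher in EtOH than CHO pools on every array (45.89 to 51.59 against 18.8 to 26.42), a gap that was not tested here. MiR-26a, miR-23b and miR-221 were tested too, and miR-222 and miR-33 were not.

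Among miRNAs enriched in hepatocytes none of the 6 tested members passed. All 6 were below 0 at 1 h, with a median of -0.05, and 3 were below 0 at 6 h, against 39.1% and 31.6% of all 133. MiR-192, miR-194 and miR-193 were lower in 4 of 4 pairs, against 6.02%. Without scaling, however, 5 of the 6 were above 0 at 1 h, where the median of all 133 was 0.29. The let-7 family, whose members restrain growth through RAS and MYC, had 8 of 8 tested members above 0 over both times, between 0.07 and 0.10, as 73.7% of all 133 were, and none passed. When arrays were scaled to the percentile over all probes all 8 were below 0, so their direction is not settled. The same holds for the miR-17 clusters, 8 of 8 above 0 at 6 h (median 0.07, none passed, against 68.4% above 0 of all 133) but 3 of 8 with that scaling.

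Stellate and smooth muscle markers were all above 0 at 1 h (5 of 5, median 0.23, against 60.9% of all 133) and mixed at 6 h (2 of 5, median -0.01), and none passed. At 1 h 4 of 5 were above 0 with the percentile over all probes. With normexp miR-214 (-0.156), miR-199a-5p (-0.0275) and the median of all 133 (-0.08) were below 0. The summed signal of the 5 markers was 530.8 before and 587.3 after PHx in EtOH, and 620.9 and 689.5 in CHO, at 1 h. Epithelial markers miR-200a and miR-200b changed by 0.18 and 0.13 at 1 h and by -0.20 and -0.06 at 6 h, and the endothelial miR-126 by 0.04 and -0.01, with none passing. Of 58 passenger strands marked with a star 10 were tested and none passed. In the other families fixed for description (miR-29, miR-30, miR-15 with miR-16, miR-23 with miR-24 and miR-27, miR-26, miR-103 with miR-107, and miR-99 with miR-100 and miR-125) none passed, and the medians over both times lay between -0.03 and 0.03. Of their 27 tested members, 2 were higher in 4 of 4 pairs (miR-23a and miR-125a-5p) and 3 were lower (miR-27b, miR-26b and miR-125b-5p), against 16.5% and 6.02% of all 133.

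MiR-30c-1*, the passenger strand of miR-30c-1, was not tested because it was detected on only 2 arrays. Both were 6 h PHx arrays, with scaled signals of 13.12 (EtOH) and 16.46 (CHO), and it was not well above background on any LLM array or at 1 h. The bound for its rise at 6 h was at least 1.44-fold, from 2 PHx arrays near the floor of 9.61, and was not tested. MiR-672 was detected on 3 of 4 PHx arrays and on none of 4 LLM arrays, and was at least 1.04-fold higher (log2 change 0.17, adjusted p 0.460). A bound of at least N-fold sets the mean after PHx against the lowest signals that were detected. Bounds were given only to miRNAs detected after PHx and on no LLM array of the same pools. Their direction was thus fixed by that choice, and they carry no error estimate.

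Against the 3 later pairs of the series (EtOH and CHO at 12 h and CHO at 24 h) the early change of none of the 133 differed at the threshold (0%), with 7 higher (5.26%) and 3 lower (2.26%) later at an unadjusted p under 0.05. Without the CHO 12 h pair 1 miRNA passed, miR-34a, with a difference of 1.26 (adjusted p 0.00765). Early and late pools lie on different slides, so slide and time cannot be told apart, and the EtOH 12 h LLM array had a spot variation of 34.0%. MiR-21 changed by 0.37 early and by 1.05, 0.86 and 1.02 in the later pairs, a difference of 0.60 (SE 0.147, adjusted p 0.299). The later changes all exceeded the highest early one, 0.60. MiR-17, miR-20a and miR-93, which share a seed, changed by 0.09, 0.10 and 0.02 early and by means of 0.57, 0.53 and 0.42 later, with adjusted p of 0.299. MiR-196b changed by 0.67 early and by -0.58 (EtOH 12 h), -0.24 (CHO 12 h) and 0.17 (CHO 24 h) later. The adjusted p of its difference was 0.353 in limma. MiR-196a changed by 0.67 early and by -0.71, -0.38 and 0.65 in the same later pairs. The values of miR-196c were 0.75 early and -0.93, -0.05 and 0.99 later. MiR-872 and miR-223 changed by 0.53 and 0.43 early and by 0.69 and 0.71 later. MiR-466b changed by 0.70 early and by a mean of 1.31 later, with 2.26 in the CHO 12 h pair. The means of miR-652 were 0.34 early and 0.24 later.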

How the data were processed

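Liver miRNA was measured on single-colour Agilent arrays of pooled total RNA. Each scanner file was deposited as linear intensity per spot, from which Agilent Feature Extraction had taken the local background. Its version is given as 10.5.1.1 per the file headers, while the submitters' processing notes name 10.7.3.1. The authors' deposited values are on a log2 scale, and their full normalization and centring could not be read from these sources. After sorting, 72 of their 350 rows were equal over the arrays within 1e-06, so at those ranks the arrays hold common values. A miRNA that stays among such ranks can only move in fixed steps. These values served as an alternative.

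The analysis took 7000 spots of 938 probes per array, without controls. Flagged outlier spots, 2.44% on these 8 arrays, were left out, and none was saturated. The mean signal of each probe was scaled to the 75th percentile of 185 probes (those detected on all 15 arrays), brought to a common level and floored at 9.61, and log2 was taken. Detection needed a share of at least 0.5 of a probe's spots to stand well above background. Where several probes measured a miRNA the brightest on average was used, and a miRNA needed detection on at least 3 of the 8 arrays. Signals below the floor are printed as measured, but changes use the floor.

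The model, limma (version 3.58.1, under R 4.3.3), had the pool as a block, since the labels give the same 4 animals before and after PHx; for the 2 times this leaves 2 residual degrees of freedom, for the mean 3. Benjamini-Hochberg adjustment ran over 133 miRNAs within each comparison, with an adjusted p under 0.05 as the threshold. The number of arrays limits the precision: the median SE was 0.0642 over 4 pairs and 0.0807 at each time. On simulated data for the change over 4 pairs, with 133 miRNAs, the fit called 81.6% of log2 changes of 0.5, 99.6% of changes of 1 and 1.18% of unchanged miRNAs. Over 50 runs the simulation held 500 changes each of 0.5, 1 and 1.5 beside 5150 unchanged values, with independent noise. In the data, 5 of the 133 changes over the pairs were beyond 0.5 and 1 miRNA passed. The share of changed miRNAs affects the adjustment, so these percentages may not carry over.

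Named miRNAs are, by rule, those called and otherwise those with the lowest unadjusted p (20 over both times, 8 at each time, 6 for each difference), some always reported where detected (among them miR-21, miR-122, miR-34a, miR-378 and miR-30c-1*), and members of the lists; others were picked on their values. The members, lists and tests were chosen with earlier results of these data known. Of the tested names, 18 matched RefSeq exactly, 90 after an arm was added and 25 did not match. Alternatives changed the scaling, background, floor, probe, filter, arrays and block. The scanner files hold no mean signal, so normexp ran on median signals, a choice made after seeing the files. Both normexp settings added an offset of 50 to each spot before the arrays were scaled.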

Additional observations from a re-analysis of the deposited data

Results flagged for a closer look

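For miR-122 (0.22), miR-139-3p (0.47), miR-17 (0.36), miR-378 (0.26), miR-505 (0.39) and miR-92a (0.41) both 1 h pairs were below 0 and both 6 h pairs above it, and the values in parentheses are the 6 h minus 1 h differences in log2 change. MiR-199a-5p had the opposite order (-0.30). In limma none of these differences passed (adjusted p from 0.216 to 0.523). Array brightness before scaling rose at 1 h and fell at 6 h, and its part in these differences was not tested.

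MiR-451 was above 0 in both EtOH pairs and below 0 in both CHO pairs, with an EtOH minus CHO difference of 1.04 (adjusted p 0.812 in limma). Red blood cell content was not measured apart from miR-451 and miR-144 themselves.

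Among the 4 pairs, the CHO 1 h pair stood apart for miR-214 with a change of 0.17, where the others lay at 0.40 and 0.41, and the EtOH 6 h pair for miR-221 with 0.67. About 1 in 20 groups is picked out this way by chance. MiR-30c-1*, which was not tested, had a mean of 3.88 on the log2 scale on the 6 h PHx arrays, above the floor of 3.26 that it had on every array before PHx.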

How the results depend on the processing

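The fits used the pool as a block. Without the block, 3 miRNAs passed over 1 and 6 h and 9 at 6 h, against 1 and 5 with it, of which 4 were shared at 6 h; it moved no count at 1 h, between times or between diets. Over 1 and 6 h the count was 0 with quantile normalization, the authors' values, both normexp settings, the floor doubled, detection on at least 1 array and all 15 arrays, 3 with the 75th percentile over all probes (2 higher, 1 lower), 2 with that over probes detected on all 8 arrays, and 4 without scaling. At 6 h it was 0 with quantile normalization and the authors' values, 8 with the percentile over all probes (7 higher, 1 lower), 15 with that over the 8-array probes, 8 with the mean of all probes, 1 with the floor doubled (miR-192, lower), 2 with normexp, 7 with normexp and 1 background value per array, 4 without scaling (3 higher, 1 lower, only miR-466b shared with the 5), 1 with detection on at least 1 array and 2 with all 15 arrays. At 1 h it was 2 with the 8-array probes and 8 without scaling. Between times it was 2, both lower at 6 h, without scaling, and 40 (39 higher) with normexp and 1 background value per array. Between diets it was 2 with the percentile over all probes and 3 with the 8-array probes. Leaving out pairs in turn gave 0 to 2 over both times, 0 to 6 at 6 h and 0 to 1 for late minus early, where the 1 came without the CHO 12 h pair.

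The sign turned at 1 h with normexp, and with normexp and 1 background value, for miR-466b (-0.0589 and -0.0495), miR-872 (-0.150 and -0.141), miR-500 (-0.0648 and -0.0695), miR-214 (-0.156 and -0.155), miR-10b (-0.0516 and -0.0616) and miR-199a-5p (-0.0275 and -0.0235). It turned between times without scaling for miR-139-3p (-0.0444), miR-92a (-0.0966), miR-505 (-0.12) and miR-21 (-0.0961), for miR-342-3p over both times in the authors' values (-0.0525), and for miR-150 late minus early with normexp (0.201). That last fit holds 2 arrays, EtOH 12 h LLM and CHO 24 h PHx, whose lowest log2 values after normexp were 7.57 and 8.38 against 5.55 to 6.26 on the others, so this value is not comparable with the others. The cause was not tested. Of the other values of named miRNAs, 791 kept their direction and side of the threshold, 51 dropped below it and 41 passed it. Only the calls of the main fit could drop below it, and the 791 include values of miRNAs that were never called. Of the drops, 41 fell on the 5 calls at 6 h. The other 10 fell on miR-466b over both times, for which 17 alternatives were tried. Low signal limits miR-872, miR-466b, miR-214 and miR-196b, which lie near the floor. The array set has no replicate pool within a diet and time.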
